A study of Homo sapiens with 6 samples.

Results

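The matrix metalloproteinases (MMPs), the ADAMTS proteases and the tissue inhibitors of metalloproteinases (TIMPs) were examined in PC-3 tumors from mice treated with vehicle or with WCE, an extract of the herb Wedelia chinensis. Members were taken by gene symbol alone, and 47 of the 24000 gene entries in the deposited table carried such a symbol, of which 24 were MMP, 19 ADAMTS and 4 TIMP entries. The PC-3 line comes from a human prostate cancer and grows without androgen. By the methods of the study, cells that carried a luciferase gene were implanted in the anterior prostate of male athymic nude mice. Such mice lack T cells, so that the tumors grew without T cell immunity in both groups. Each group held 3 tumors, and messenger RNA of each tumor was sequenced with a stranded library kit. The labels give a treatment duration of 10 weeks for both groups and no dose, whereas the text of the study gives another duration, and its Results and Methods name different doses. Values are in FPKM, which counts fragments per unit of transcript length and of library size, so that levels of different genes can be compared per length. Nothing in the labels says which tumors were collected or sequenced together, and the p-values measure the spread between these 6 tumors.

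MMPs are zinc-dependent proteases that cut collagens, laminins, fibronectin and other proteins of the extracellular matrix, as well as growth factors and receptors at the cell surface. They are made as inactive precursors that furin, plasmin or another MMP cleaves. The ADAMTS proteases are secreted relatives with thrombospondin repeats, and they cleave proteoglycans such as versican, procollagens or von Willebrand factor, depending on the member. The 4 TIMPs are small secreted proteins that block the active site of MMPs, and TIMP3 also blocks several ADAMTS and ADAM proteases. In carcinomas these families are known for their part in invasion and in the release of growth factors, and much of the MMP output of a human tumor comes from host cells, which in a xenograft are mouse cells.

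Of the 47 entries, 27 had a mean of at least 0.5 FPKM over the 6 tumors and were tested. These were 16 MMPs, 8 ADAMTSs and 3 TIMPs. The other 20 were below that level, with the highest mean at 0.484 FPKM for ADAMTS3. Among these, 4 MMP entries were listed at 0 in all 6 tumors, namely MMP20, which acts in tooth enamel, MMP26, MMP27 and a separate entry named MMP23A. In all, 13 entries were listed at 0 in at least 1 tumor. A mean of at least 10 FPKM was reached by 8 entries, 6 MMPs and 2 TIMPs, and by no ADAMTS.

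Vehicle replicate 3 and WCE replicate 1 had nearly the same values although they carry different treatments. Over 1915 entries with a mean of at least 50 FPKM, their log2 values differed by a median of 0.0276 in absolute size, and those of the other 14 pairs of tumors by 0.0950 to 0.247. Over the 27 tested members the median was 0.0682 in that pair and 0.224 to 0.488 in the others. Vehicle replicate 3 was at 0 in 0 of the 15805 entries that WCE replicate 1 had above 0. The depth relative to vehicle replicate 3 was 25.0% in WCE replicate 1 and 64.8% to 85.2% in the other 4 tumors, and the absolute depth is unknown. These files do not settle whether the 2 libraries came from separate tumors. Each mean, SD and p given for all 6 tumors with n = 3 assumes that they did and that both labels hold. Comparisons are therefore given for all 6 tumors as labeled and for the 2 vehicle and 2 WCE tumors left without both libraries. Epithelial and tumor cell markers summed to 1932 to 2366 FPKM in vehicle tumors and 1965 to 2261 FPKM in WCE tumors, with 8 of 8 markers above the 0.5 FPKM limit. Within that list EPCAM, CDH1 and CDH2 had an unadjusted limma p under 0.05 (3 of 8, 37.5%, against 7.1% of all entries). Their groups did not overlap, against 12.8% of all entries, and all 3 were lower in WCE tumors. Their log2 fold changes were -0.73, -0.47 and -0.41, with a limma adjusted p of 0.623. VIM had a log2 fold change of 0.41 with the same adjusted p. The keratins of the list, KRT8, KRT18, KRT19 and KRT7, had log2 fold changes of 0.05, 0.10, -0.01 and -0.33 (limma, adjusted p from 0.623 to 0.986). The part of these markers in the values of the proteases was not tested. RNA from bulk tumors cannot tell fewer cells of a type from less RNA per cell.

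WCE and vehicle tumors were compared with limma on log2(FPKM + 1), with p-values adjusted over the 13287 entries that passed the same limit. No member passed the adjusted threshold of 0.05 (0 of 27), and the lowest adjusted p was 0.623. Among all entries, 1 passed, which is 0.00753% of those tested. At an unadjusted p under 0.05, 1 of 27 members was counted, ADAMTS20, which was higher in WCE tumors, against 7.1% of all entries tested (3.78% higher and 3.33% lower). Groups did not overlap for 2 of the 27, ADAMTS20 and MMP16, both higher in WCE tumors, against 12.8% of all entries (6.37% higher and 6.4% lower). Below the limit for testing, the groups of TIMP3 and ADAMTS3 did not overlap either, and both were lower in WCE tumors. The log2 fold change was above 0 in 14 members and below 0 in 13 (51.4% of all entries were below 0), with a median of 0.02 for the members and -0.01 for all entries. Neither count stood above the share in the whole table. The count of 1 at an unadjusted p under 0.05 became 0 without WCE replicate 2, 0 without WCE replicate 3 and 5 without WCE replicate 1. Over all 13287 entries the count moved in the same way, from 944 to 235, 219 and 2033 in these fits.

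**Figure D1:**
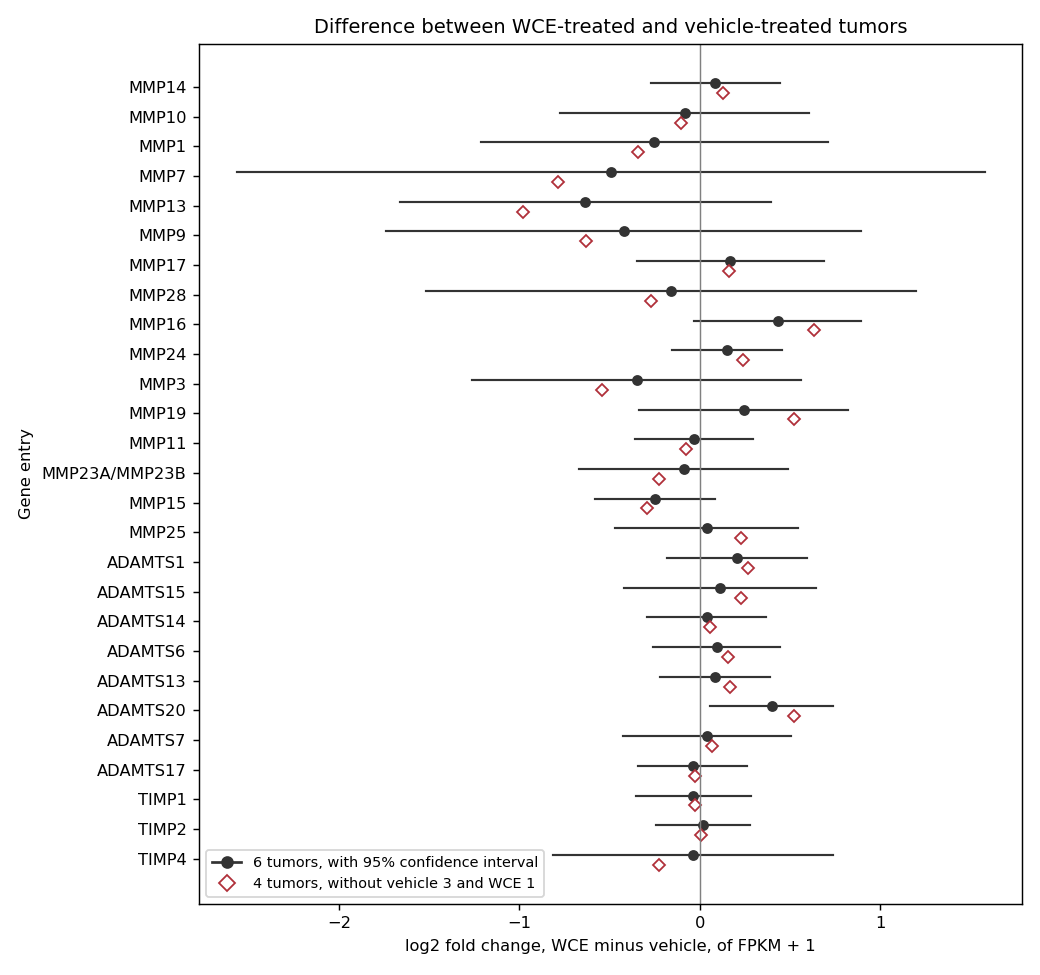
Log2 fold change of each tested member, WCE minus vehicle, on the log2(FPKM + 1) scale. Values for all 6 tumors have 95% confidence intervals from limma. Values for the tumors left without vehicle replicate 3 and WCE replicate 1 are drawn without intervals. The interval over all 6 tumors lies above 0 for ADAMTS20, from 0.06 to 0.74, and spans 0 for the other 26 members.

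The summed level of the MMPs, in FPKM, was 335, 424 and 581 in vehicle replicates 1 to 3 and 577, 334 and 393 in WCE replicates 1 to 3. The means were 447 ± 124 and 435 ± 127 FPKM (SD, n = 3), and the groups overlapped. The summed level of the TIMPs was 298, 380 and 377 FPKM in the vehicle tumors and 369, 329 and 333 FPKM in the WCE tumors. The TIMP sums of vehicle replicate 3 and WCE replicate 1 were below that of vehicle replicate 2 and above those of the remaining tumors. They stood out less than the MMP sums. Summed MMP per summed TIMP was 1.54 in vehicle replicate 3, 1.56 in WCE replicate 1 and between 1.01 and 1.18 in the other 4. By group this ratio was 1.26 ± 0.243 in vehicle and 1.25 ± 0.283 in WCE tumors (SD, n = 3). The ADAMTS sum was far lower, at 17.3, 16.5 and 22.5 FPKM in vehicle tumors and 22.0, 18.5 and 22.5 FPKM in WCE tumors.

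**Figure D2:**
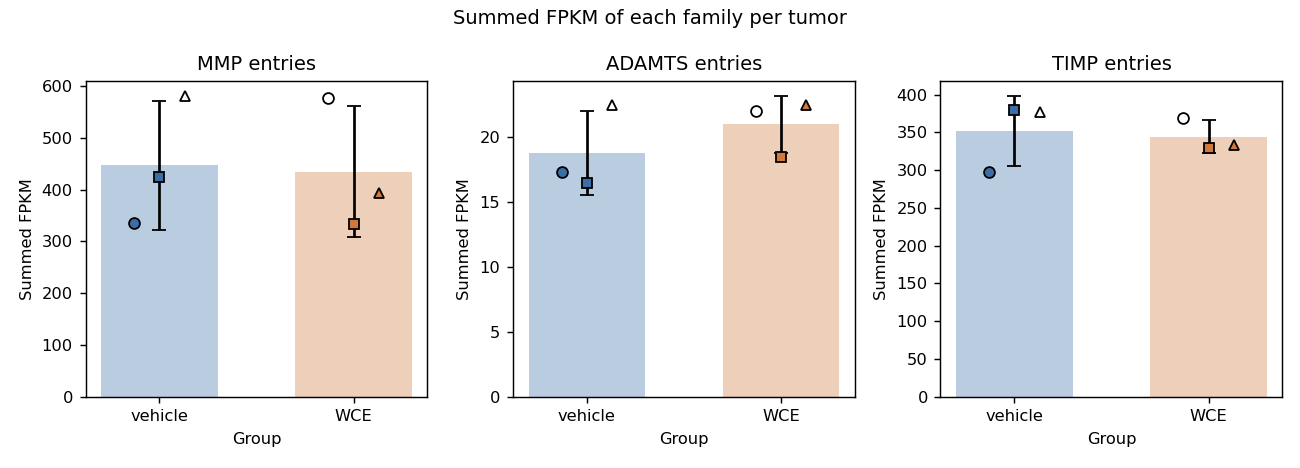
Summed FPKM of the MMP, ADAMTS and TIMP entries in each tumor by group, with the mean and SD (n = 3). Open symbols mark vehicle replicate 3 and WCE replicate 1, whose MMP sums of 581 and 577 FPKM are the highest of the 6 tumors.

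The TIMPs are described first. TIMP1, which inhibits most secreted MMPs, had the highest mean level of all 47 entries. Its listed locus, chrX:47420499-47479256, also holds ARAF, SYN1 and MIR4769. Coordinates are those of the table, counted from 1, and hg19 is the human build that the labels list. TIMP1 stood at 225, 304 and 294 FPKM in the vehicle tumors and at 284, 248 and 266 FPKM in the WCE tumors. The groups overlapped, and vehicle replicate 1 was the lowest of the 6. TIMP1 means were 274 ± 43.1 and 266 ± 17.9 FPKM (SD, n = 3), and the log2 fold change was -0.04 (SE 0.14, limma, adjusted p = 0.950). TIMP1 made up 75.2% to 79.9% of the summed TIMP level in each tumor.

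TIMP2, which at low levels helps MMP14 activate pro-MMP2 at the cell surface, lies at chr17:76849059-76921472. It measured 71.4, 73.0 and 78.6 FPKM in vehicle tumors and 80.7, 80.2 and 65.5 FPKM in WCE tumors. WCE replicate 3 was the lowest and WCE replicate 1 the highest, so the range of the vehicle tumors fell inside that of the WCE tumors. WCE tumors differed from vehicle tumors by a log2 fold change of 0.02 (SE 0.11, limma, adjusted p = 0.970). TIMP1 and TIMP2 together held 98.7% to 99.5% of the summed TIMP level.

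TIMP4, an inhibitor known best from heart tissue, was low, at 1.44, 2.61 and 3.25 FPKM in vehicle tumors and 4.38, 1.40 and 1.69 FPKM in WCE tumors. It was highest in vehicle replicate 3 and WCE replicate 1. For TIMP4 the log2 fold change was -0.04 (SE 0.33, limma, adjusted p = 0.978). TIMP3, which binds to the matrix and inhibits ADAMTS and ADAM proteases, was below the level for testing. TIMP3 stood at 0.478, 0.775 and 0.431 FPKM in vehicle tumors and at 0.275, 0.152 and 0.290 FPKM in WCE tumors. All 3 vehicle values lay above all 3 WCE values, with means of 0.561 ± 0.187 and 0.239 ± 0.0760 FPKM (SD, n = 3). An exact two-sided permutation test gave p = 0.1, the smallest that 3 against 3 tumors allow. With no filter on low values limma gave an unadjusted p of 0.0253 and an adjusted p of 0.873. TIMP1, TIMP3 and TIMP4 share their listed loci with the synapsin genes SYN1, SYN3 and SYN2, which were at or below 0.183 FPKM in every tumor.

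Among the MMPs the membrane-bound MMP14 (MT1-MMP), which cleaves fibrillar collagen around the cell and activates pro-MMP2, was the most abundant in every tumor, with 42.6% to 59.7% of the summed MMP level. Its locus is chr14:23305793-23316803. MMP14 measured 171, 212 and 247 FPKM in the vehicle tumors and 247, 199 and 218 FPKM in the WCE tumors. The groups overlapped, and vehicle replicate 1 was the lowest. The means were 210 ± 37.9 and 222 ± 24.1 FPKM (SD, n = 3), with a log2 fold change of 0.09 (SE 0.15, 95% interval -0.27 to 0.44, limma, adjusted p = 0.868). Together MMP14, MMP10 and MMP1 held 77.2% to 86.1% of the MMP sum.

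The other membrane-type MMPs had mean levels of 7.33 FPKM or less. MMP16 (MT3-MMP), at chr8:89049460-89339717, stood at 4.23, 2.35 and 4.18 FPKM in vehicle tumors and at 4.27, 5.86 and 5.17 FPKM in WCE tumors. The groups did not overlap, though the highest vehicle and the lowest WCE value were nearly equal. MMP16 had a log2 fold change of 0.43 (SE 0.20, 95% interval -0.03 to 0.89) with a limma p of 0.0630 and an adjusted p of 0.623. MMP17, which is anchored to the membrane by a lipid, ran from 4.92 to 8.82 FPKM in vehicle tumors and from 5.72 to 9.28 FPKM in WCE tumors, and vehicle replicate 3 and WCE replicate 1 were its lowest values. MMP24 was between 2.33 and 3.47 FPKM. MMP15 was between 1.18 and 1.52 FPKM in vehicle tumors and between 0.796 and 1.25 FPKM in WCE tumors, with overlapping groups.

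A run of 9 MMP entries lies at chr11:102391239-102826463, and 5 of them were tested: MMP7, MMP10, MMP1, MMP3 and MMP13. Their order along the locus is MMP7, MMP20, MMP27, MMP8, MMP10, MMP1 with MMP3, MMP12 and MMP13. The table lists MMP1 and MMP3 at a single shared locus, so reads could have been divided between them in a way that is not known. All 5 had negative log2 fold changes, from -0.64 for MMP13 to -0.09 for MMP10, against 51.4% of all entries tested. In none of the 5 did the unadjusted limma p fall under 0.05 with all 6 tumors. Neighboring genes of one locus are not independent of each other.

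The promoters of MMP10 and MMP7, the most abundant genes of this run with a sequence in the RefSeq promoter table (GRCh38.p14), are shown with that of ADAMTS20, the member with the lowest unadjusted p. Each is the 120 bases before the annotated start, 5′ to 3′ on the strand of the gene, with matches to the AP-1 element TGANTCA and to the TATA box TATAAA in capitals.
MMP10: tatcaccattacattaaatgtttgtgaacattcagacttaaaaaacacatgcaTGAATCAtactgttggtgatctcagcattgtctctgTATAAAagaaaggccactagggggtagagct
MMP7: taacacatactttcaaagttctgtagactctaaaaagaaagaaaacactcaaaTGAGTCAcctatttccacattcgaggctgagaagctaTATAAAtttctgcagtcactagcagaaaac
ADAMTS20: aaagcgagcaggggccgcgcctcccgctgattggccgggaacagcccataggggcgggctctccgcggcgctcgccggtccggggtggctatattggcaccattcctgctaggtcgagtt
They lie at chr11:102780629-102780748, chr11:102530748-102530867 and chr12:43552204-43552323, all on the minus strand. In MMP10 and in MMP7 the AP-1 match begins at base -67 from the start, and the TATA box at -31 and -30. The ADAMTS20 stretch holds neither. Promoters of 27 of the 47 members, from 250 bases before to 50 after the start, were in the table. The other 20, among them MMP1, MMP2, MMP3, MMP9, MMP13, MMP16 and TIMP2, were not searched for any motif. The AP-1 letters, searched on both strands, were in 4 of the 27 (MMP7, MMP10, MMP20 and ADAMTS12) and in 7.705% of all 35093 promoters. The TATA box letters, searched on the strand of the gene, were in 6 of the 27, all MMPs, and in 7.332% of all promoters. A match to the NF-kB consensus on both strands was in 1 of the 27, ADAMTS3, and in 11.256% of all promoters. These matches describe letters in the sequence and not the binding of a factor.

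MMP10 (stromelysin-2), which cleaves laminin and fibronectin and activates procollagenases, measured 67.0, 67.4 and 116 FPKM in vehicle tumors and 112, 55.0 and 70.7 FPKM in WCE tumors. MMP1, the interstitial collagenase, measured 45.0, 48.3 and 95.6 FPKM in vehicle tumors and 91.2, 33.1 and 40.3 FPKM in WCE tumors. Both were highest in vehicle replicate 3 and WCE replicate 1. In the other 4 tumors the WCE values of MMP10 lay on either side of the vehicle values, and those of MMP1 lay below them. The log2 fold changes over all 6 tumors were -0.09 (SE 0.30) for MMP10 and -0.25 (SE 0.41) for MMP1, with limma adjusted p of 0.946 and 0.855. Without those libraries the log2 fold change of MMP1 was -0.34 (SE 0.13, limma, adjusted p = 0.268).

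MMP7 (matrilysin), a small MMP made by epithelial cells that sheds surface proteins such as E-cadherin, varied most of the 27 tested members. It stood at 8.17, 28.8 and 43.7 FPKM in vehicle tumors and at 46.7, 3.40 and 19.9 FPKM in WCE tumors. The highest value was 13.7 times the lowest, and both lay in the WCE group. Its log2 fold change of -0.49 had an SE of 0.89 and a 95% interval from -2.57 to 1.58 (limma, adjusted p = 0.870), the widest interval among the tested members.

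MMP13 (collagenase-3), a strong protease of fibrillar collagen, measured 11.2, 26.6 and 22.9 FPKM in vehicle tumors and 23.7, 7.87 and 8.73 FPKM in WCE tumors. WCE replicates 2 and 3 lay below every vehicle tumor, whereas WCE replicate 1 lay among them. The log2 fold change was -0.64 (SE 0.44, limma, adjusted p = 0.659) with all tumors and -0.98 (SE 0.38, limma, adjusted p = 0.270) without the near-identical libraries. MMP3 (stromelysin-1) was lower, at 1.97, 2.29 and 4.27 FPKM in vehicle tumors and 4.41, 0.963 and 1.34 FPKM in WCE tumors. WCE replicates 2 and 3 were again the lowest. Its log2 fold change was -0.35 (SE 0.39, limma, adjusted p = 0.774), and -0.54 (SE 0.16, limma, adjusted p = 0.212) without those libraries.

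Of the gelatinases, which cut denatured collagen and the type IV collagen of basement membranes, MMP9 was expressed and MMP2 was nearly absent. MMP9, at chr20:44637547-44645200, stood at 6.80, 14.4 and 22.7 FPKM in vehicle tumors and at 22.7, 7.76 and 4.69 FPKM in WCE tumors. The groups overlapped over most of their range. The means were 14.6 ± 7.94 and 11.7 ± 9.65 FPKM (SD, n = 3), and the log2 fold change was -0.42 (SE 0.57, 95% interval -1.74 to 0.90, limma, adjusted p = 0.817). MMP2 was 0.0222, 0.342 and 0.604 FPKM in vehicle tumors and 0.574, 0.219 and 0.274 FPKM in WCE tumors and was not tested. MMP9 is also made by neutrophils and macrophages, which in a xenograft are mouse cells, whereas the markers read here were human gene entries. The summed myeloid markers ran from 367 to 1596 FPKM in vehicle tumors and from 582 to 1594 FPKM in WCE tumors, carried by S100A9, S100A8 and CD68, which epithelial cells can express, and 3 of 12 marker genes passed the 0.5 FPKM limit. TYROBP was listed at 0 in all tumors, ELANE, MPO and AIF1 did not exceed 0.0763 FPKM, and PTPRC was between 0.106 and 0.666 FPKM. S100A8 measured 23.2, 102 and 255 FPKM in vehicle tumors and 254, 36.5 and 124 FPKM in WCE tumors, and so was also highest in vehicle replicate 3 and WCE replicate 1. The part of these cells in the MMP9 values was not tested.

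**Figure D3:**
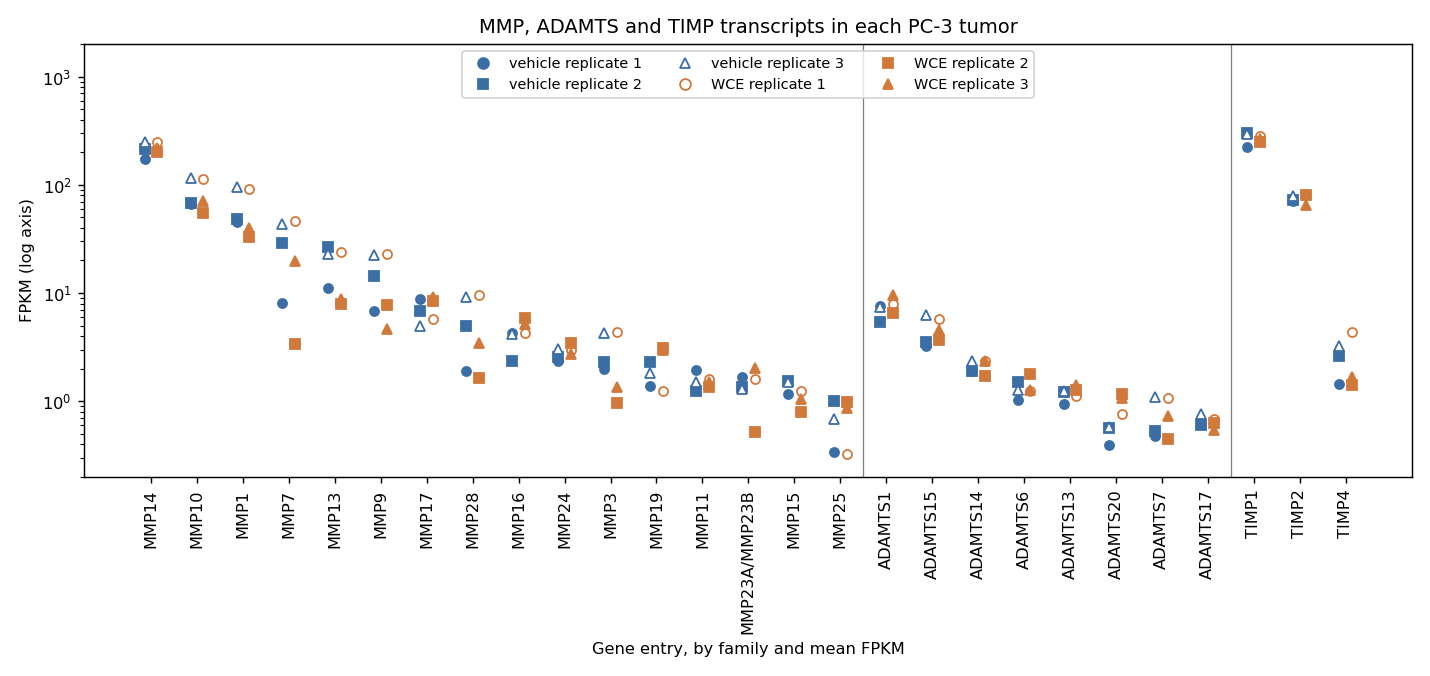
FPKM on a log axis of the 27 tested members, by family and mean level, in each of the 3 vehicle tumors (blue) and 3 WCE tumors (orange). Open symbols mark vehicle replicate 3 and WCE replicate 1, which hold the highest values for MMP1, MMP7, MMP9 and MMP10.

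MMP28 (epilysin), an MMP of epithelia, had the same order of tumors as MMP7, with 1.89, 4.92 and 9.17 FPKM in vehicle tumors and 9.68, 1.63 and 3.46 FPKM in WCE tumors. Its log2 fold change was -0.16 (SE 0.58, limma, adjusted p = 0.947). MMP19 went the other way, with 1.39, 2.30 and 1.81 FPKM in vehicle tumors and 1.26, 3.11 and 2.95 FPKM in WCE tumors. Here WCE replicates 2 and 3 were the highest and WCE replicate 1 the lowest of the 6. The log2 fold change of MMP19 was 0.24 (SE 0.25, limma, adjusted p = 0.757), and 0.52 (limma, adjusted p = 0.258) without the near-identical libraries. MMP19 shares its listed locus with ORMDL2, TMEM198B and DNAJC14. MMP11, MMP25 and the joined entry for MMP23A and MMP23B had log2 fold changes between -0.09 and 0.04, with limma adjusted p from 0.927 to 0.964.

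Of the 19 ADAMTS entries 8 were tested, and 7 of these had positive log2 fold changes, with a median of 0.09. Over all entries tested, 51.4% were below 0. Several of the 7 were close to 0, with 0.04 for ADAMTS14, 0.04 for ADAMTS7 and 0.08 for ADAMTS13 (limma, adjusted p from 0.844 to 0.960). ADAMTS14 and ADAMTS15 changed sign in some fits with a tumor left out. ADAMTS20 (chr12:43748012-43945724), a protease that cleaves versican, measured 0.393, 0.566 and 0.584 FPKM in vehicle tumors and 0.756, 1.18 and 1.07 FPKM in WCE tumors. All 3 WCE values lay above all 3 vehicle values, and WCE replicate 1 lay above vehicle replicate 3, though by less than the other WCE tumors. Means were 0.515 ± 0.105 and 1.00 ± 0.219 FPKM (SD, n = 3). The log2 fold change was 0.40 (SE 0.15, 95% interval 0.06 to 0.74) with the pseudocount of 1, which shrinks the change of so low a gene, and 0.83 with a pseudocount of 0.1. The limma p was 0.0275 and the adjusted p 0.623. The unadjusted limma p was 0.0611 without vehicle replicate 1, 0.0842 without WCE replicate 2 and 0.0740 without WCE replicate 3.

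ADAMTS1, which cleaves versican and aggrecan, was the most abundant ADAMTS, with 7.60, 5.39 and 7.40 FPKM in vehicle tumors and 7.85, 6.58 and 9.51 FPKM in WCE tumors. The groups overlapped. ADAMTS1 had a log2 fold change of 0.20 (SE 0.17, limma, adjusted p = 0.690), and its locus is chr21:28208606-28217728. ADAMTS15, also a protease of versican and aggrecan (chr11:130318869-130346539), was 3.27, 3.50 and 6.30 FPKM in vehicle tumors and 5.71, 3.72 and 4.59 FPKM in WCE tumors. Vehicle replicate 3 and WCE replicate 1 were highest, and the log2 fold change was 0.11 (SE 0.23, limma, adjusted p = 0.887). ADAMTS14, which removes the amino-terminal propeptide of procollagens (chr10:72432559-72522195), was 1.90, 1.91 and 2.37 FPKM in vehicle tumors and 2.37, 1.70 and 2.37 FPKM in WCE tumors, with a log2 fold change of 0.04 (SE 0.14, limma, adjusted p = 0.950). ADAMTS6, ADAMTS7, ADAMTS13 and ADAMTS17 had tumor values between 0.444 and 1.78 FPKM and log2 fold changes between -0.04 and 0.09.

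The aggrecanases ADAMTS4 and ADAMTS5 were near 0, with no value above 0.117 FPKM in any of the 6 tumors. ADAMTS3, a procollagen protease below the level for testing, measured 0.549, 0.503 and 0.656 FPKM in vehicle tumors and 0.453, 0.428 and 0.313 FPKM in WCE tumors. The 3 WCE values lay below the 3 vehicle values, with an exact two-sided permutation p of 0.1. With no filter on low values the limma p was 0.0344 and the limma adjusted p 0.873. ADAMTS3, TIMP3 and MMP2 were named after their values had been seen.

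The tumors differed from each other more in the MMPs than in the table as a whole, while the median ADAMTS and TIMP were near it. The log2 range over the 6 tumors, the highest minus the lowest value of log2(FPKM + 1), had a median of 0.72 over the 27 members and 0.45 over all 13287 entries tested. By family the median range was 1.01 for MMPs, 0.50 for ADAMTSs and 0.43 for TIMPs. A range above 1 was found in 9 of 27 members (33.333%) against 8.347% of all entries. These 9 were MMP1, MMP3, MMP7, MMP9, MMP10, MMP13, MMP16, MMP28 and TIMP4. The highest FPKM value was 13.7 times the lowest for MMP7, 5.95 times for MMP28, 4.85 times for MMP9 and 4.58 times for MMP3, but 1.44 times for MMP14, 1.35 times for TIMP1 and 1.23 times for TIMP2. The range was not adjusted for level, and low genes carry more counting error. The pseudocount of 1 also narrows the range of low genes beside that of abundant ones. MMP25, at 3.09 times, had a log2 range of 0.60, and the more abundant MMP10, at 2.10 times, had 1.06.

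Vehicle replicate 3 and WCE replicate 1 were the 2 highest tumors in 12 of the 27 members (44.444%), against 13.434% of all entries tested. The 12 were MMP1, MMP3, MMP7, MMP9, MMP10, MMP14, MMP28, ADAMTS7, ADAMTS14, ADAMTS15, ADAMTS17 and TIMP4. They were the 2 lowest in 1 member, MMP17, or 3.704%, against 14.623%.

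**Figure D4:**
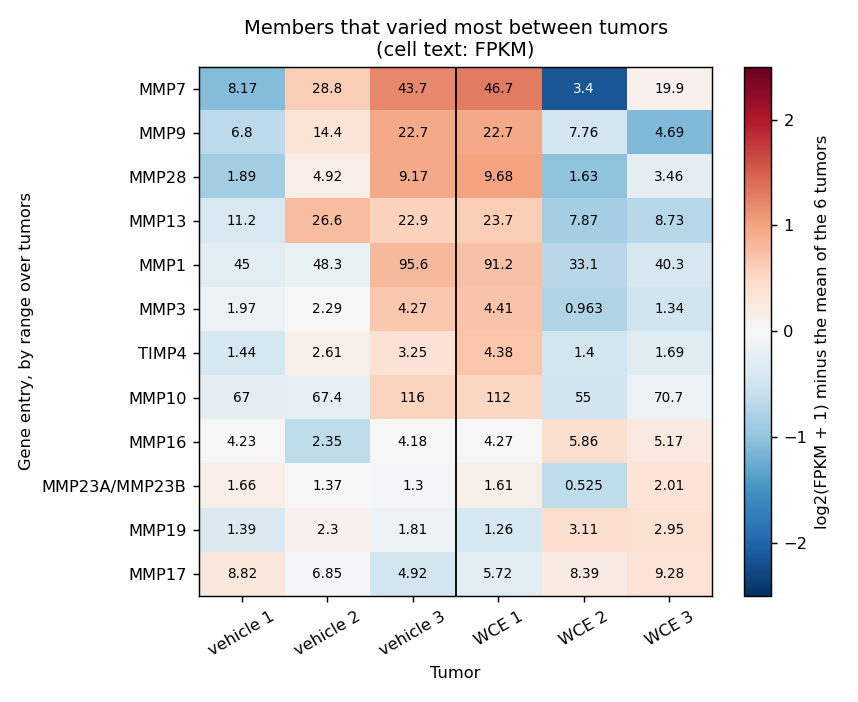
Colors give log2(FPKM + 1) in each tumor minus the mean of the 6 tumors, for the 12 members with the widest ranges in order of range, and the numbers in the cells are FPKM. The columns of vehicle replicate 3 and WCE replicate 1 are alike and hold the highest values of MMP7, MMP9, MMP28, MMP1, MMP3, TIMP4 and MMP10.

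With both of these libraries left out, 2 vehicle and 2 WCE tumors remained. At an unadjusted p under 0.05, 6 of 27 members (22.222%) were counted, against 18.4% of all entries tested (8.84% higher and 9.59% lower). MMP1, MMP3 and MMP13 were lower in WCE tumors, and MMP16, MMP19 and ADAMTS20 were higher. No member passed the adjusted threshold (0 of 27), and the lowest adjusted p was 0.209, whereas 5 entries of the whole table passed (0.0376%). The share of members was near that of all entries. The log2 fold change was below 0 in 13 of the 27 members and in 51.3% of all entries. The median log2 fold change was -0.17 for the MMPs, 0.16 for the ADAMTSs and -0.03 for the TIMPs, against -0.01 for all entries. MMP16 had a log2 fold change of 0.63 (SE 0.24, limma, adjusted p = 0.259) and ADAMTS20 of 0.52 (SE 0.15, limma, adjusted p = 0.209). For MMP9 it was -0.63 (SE 0.38, limma, adjusted p = 0.412). With 2 tumors in each group an exact permutation test of a single gene cannot give a p under 0.333.

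Proteins that activate or hold MMPs at the cell surface were read from a list of 14 genes, of which 10 were tested. At an unadjusted limma p under 0.05 there was 1 gene (10.0%, against 7.1% of all entries). None had an adjusted p under 0.05 (0 of 10). The list includes PLAU (urokinase), which makes plasmin and was far above every MMP, at 1285, 1506 and 1256 FPKM in vehicle tumors and 1259, 1285 and 1074 FPKM in WCE tumors (limma, adjusted p = 0.685). ST14 (matriptase), a membrane serine protease, was the gene counted. It measured 95.03, 73.8 and 73.8 FPKM in vehicle tumors and 74.4, 35.5 and 49.4 FPKM in WCE tumors. ST14 had a log2 fold change of -0.65 (SE 0.25, limma, adjusted p = 0.623), with WCE replicate 1 at the level of 2 vehicle tumors. FURIN, which cleaves the precursors of the membrane-type MMPs, was between 11.9 and 15.5 FPKM with a log2 fold change of -0.00064 (SE 0.12).

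Of 12 other inhibitors and clearance receptors 11 were tested, and 2 had an unadjusted p under 0.05 (18.182%, against 7.1% of all entries). Without the near-identical libraries there were 5 (45.455%, against 18.4%). LRP1, the endocytic receptor that takes up MMPs, ADAMTSs and TIMPs, measured 7.46, 8.67 and 13.2 FPKM in vehicle tumors and 13.1, 17.6 and 19.5 FPKM in WCE tumors. Its groups overlapped only through vehicle replicate 3 and WCE replicate 1, and the log2 fold change was 0.74 (SE 0.22, limma, adjusted p = 0.623). Without those libraries the log2 fold change of LRP1 was 1.11 (limma, adjusted p = 0.171). SERPINB2, an inhibitor of urokinase, measured 22.8, 16.5 and 16.7 FPKM in vehicle tumors and 14.5, 6.61 and 11.5 FPKM in WCE tumors. The groups of SERPINB2 did not overlap, as in 12.8% of all entries, and its log2 fold change was -0.77 (SE 0.26, limma, adjusted p = 0.623). RECK, a membrane inhibitor of MMPs, was between 1.07 and 1.51 FPKM, and A2M was listed at 0 in all tumors.

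Of 23 matrix substrates 15 were tested. VCAN (versican), the substrate of ADAMTS1, ADAMTS15 and ADAMTS20, was the only one with an unadjusted limma p under 0.05 (6.667%, against 7.1% of all entries). VCAN measured 9.65, 6.71 and 4.22 FPKM in vehicle tumors and 3.96, 3.30 and 3.87 FPKM in WCE tumors. The groups did not overlap, as in 12.8% of all entries, and the 3 vehicle tumors differed among themselves by more than the 3 WCE tumors. VCAN had a log2 fold change of -0.68 (SE 0.24, limma, adjusted p = 0.623). THBS1 (thrombospondin-1) stood at 178, 218 and 229 FPKM in vehicle tumors and at 232, 79.8 and 89.5 FPKM in WCE tumors, so that WCE replicate 1 lay with the vehicle tumors. Its log2 fold change was -0.80 (SE 0.37, limma, adjusted p = 0.623) with all tumors and -1.21 (limma, adjusted p = 0.171) without the near-identical libraries. FN1 (fibronectin), at 33.5, 63.6 and 136 FPKM in vehicle tumors and 138, 30.3 and 66.9 FPKM in WCE tumors, was highest in the same 2 libraries as MMP1, MMP7, MMP9 and MMP10.

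The remaining lists held no gene at an unadjusted p under 0.05 by limma with all 6 tumors. These were 8 tested ADAM proteases, led by ADAM15 at 110 to 141 FPKM and including the shedding proteases ADAM10 and ADAM17, 4 tested ADAMTS-like proteins, and 15 transcription factors that bind MMP promoters. Their median log2 fold changes were -0.04, 0.11 and 0.12. Without the near-identical libraries the count at an unadjusted limma p under 0.05 was 1 of 8, 2 of 4 and 2 of 15 in these lists, 2 of 10 for the activators, 5 of 11 for the other inhibitors and 5 of 15 for the matrix substrates, against 18.4% of all entries. No gene of the 6 lists had an adjusted p under 0.05 there (0 in each). The AP-1 subunit FOSL1 was between 184 and 230 FPKM in vehicle tumors and between 184 and 283 FPKM in WCE tumors, with a log2 fold change of 0.22 (SE 0.17, limma, adjusted p = 0.682). JUN was between 33.5 and 40.1 FPKM in vehicle tumors and between 33.8 and 55.6 FPKM in WCE tumors, with a log2 fold change of 0.32 (SE 0.18, limma, adjusted p = 0.623).

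**Figure D5:**
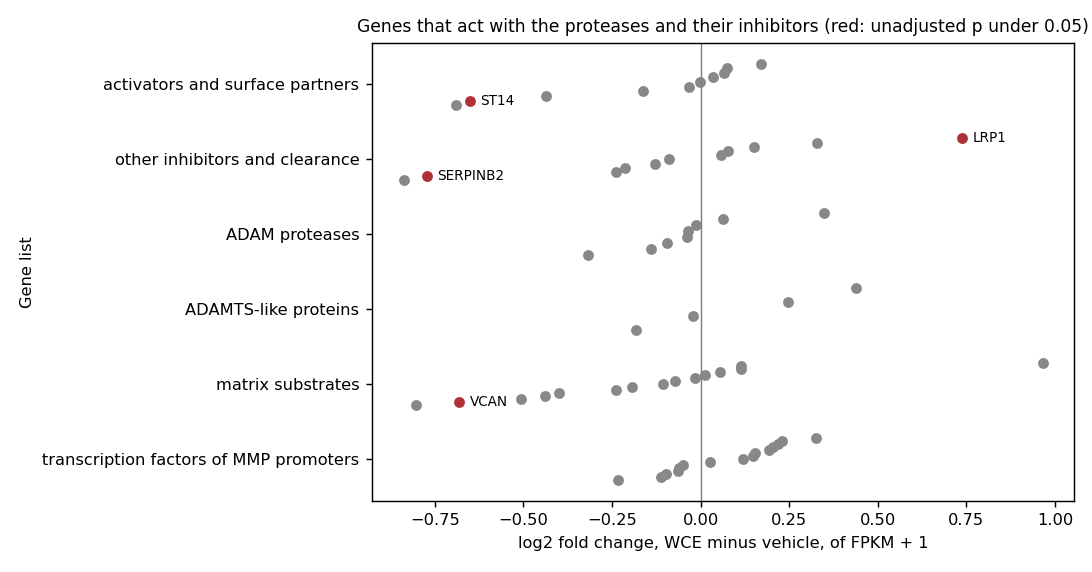
Log2 fold change of each tested gene in the 6 lists of activators, other inhibitors, ADAM proteases, ADAMTS-like proteins, matrix substrates and transcription factors, over all 6 tumors. Genes with an unadjusted limma p under 0.05 are marked: ST14, SERPINB2 and VCAN below 0 and LRP1 above 0.

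Markers of other cell types were also read from the human gene table. Endothelial markers summed to 2.74 to 6.27 FPKM in vehicle tumors and 6.11 to 10.5 FPKM in WCE tumors, with 3 of 9 above the 0.5 FPKM limit and EMCN listed at 0 in all. The sums overlapped, and those of WCE replicates 2 and 3 lay above the vehicle range through KDR. KDR was at 0.216, 0.247 and 0.529 FPKM in vehicle tumors and 0.559, 1.59 and 5.12 FPKM in WCE tumors. Without it the sums were 2.52 to 6.02 FPKM and 5.401 to 5.55 FPKM. Of the 3 tested, only KDR had an unadjusted limma p under 0.05 (33.333%, against 7.1% of all entries). Its groups did not overlap, as in 12.8% of all entries, and its log2 fold change was 1.14 (limma, adjusted p = 0.623). Fibroblast and pericyte markers summed to 58.4 to 69.2 FPKM and 50.3 to 80.9 FPKM, with 7 of 12 above the limit. The highest were COL1A1 at 10.4 to 45.7 FPKM and PDGFRA at 3.97 to 32.6 FPKM over the 6 tumors. COL1A2, PDGFRB, DCN and THY1 stayed below 0.63 FPKM in every tumor. Of the 7 tested, only LUM had an unadjusted limma p under 0.05 (14.286%, against 7.1% of all entries). Log2 fold changes were -0.85 for LUM and 0.93 for PDGFRA (limma, adjusted p = 0.623 and 0.662). The labels list the mouse build mm10 beside hg19, with no word on how mouse reads were kept from human genes. The part of mouse reads in the values of the MMPs was not tested.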

How the data were processed

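RNA-seq of 6 PC-3 tumors, 3 per group, was taken from 1 table. The authors deposited FPKM values per gene entry, as a Cufflinks gene table has them. The submitters' processing notes list TopHat2 2.0.13 and Cufflinks with the builds hg19 and mm10, and the annotation, the scaling between tumors and the treatment of mouse reads are not given in the sources used here. The table held no read counts, so no counting intervals were computed, and depth was read only relative to vehicle replicate 3, from the steps of low values.

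The sample labels tied each column to its tumor. Values were put on the log2(FPKM + 1) scale, entries under a mean of 0.5 FPKM over the 6 tumors were left out, and the 2 treatments were tested with limma 3.58.1 (R 4.3.3, mean-variance trend, two-sided, Benjamini-Hochberg adjustment over all 13287 entries, threshold 0.05). The fit was run on simulated data with independent noise in each tumor, which cannot show how it behaves with near-identical libraries in both groups. Exact permutation tests of single genes were two-sided, with a smallest p of 0.1 for 3 against 3 tumors. Sums, ranges and figures were made in Python 3.11.15 with matplotlib 3.10.9.

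The members, the gene lists and the omission of vehicle replicate 3 with WCE replicate 1 were chosen with earlier results of these data known. Values by tumor were given for the TIMPs, the 3 most abundant MMPs and ADAMTSs, and MMP9. They were also given for members with an unadjusted p under 0.05 or groups that did not overlap. Outside that rule they were given for MMP2, MMP3, MMP7, MMP13, MMP19 and MMP28. These were not picked by level alone, as MMP17 and MMP24, given by range, were more abundant than MMP3 and MMP19. In related lists the genes with an unadjusted p under 0.05 and up to 5 others were named. Alternatives were other pseudocounts, filters and scalings, array weights, the replicate number as a block, and fits without each tumor in turn. The labels number tumors within a group without saying that a number pairs them. Promoter sequences came from a RefSeq table (GRCh38.p14), which held 27 of the 47 symbols.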

Additional observations from a re-analysis of the deposited data

How the results depend on the processing

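No member passed the adjusted threshold of 0.05 by limma under any of the 14 alternatives (0 of those tested in each), and the lowest adjusted p of the 16 named members was 0.126. The number of members at an unadjusted p under 0.05, 1 with all tumors, was 3 with no filter on low values (2 of them lower in WCE tumors), 0 at a minimum mean of 1 FPKM, where ADAMTS20 was not tested, and 6 both with weights for the tumors and without vehicle replicate 3 and WCE replicate 1, with 3 lower in each. With a single tumor left out it ran from 0 to 5, with 0 to 2 lower. Over all entries the number was 944 with all tumors, 3201 with weights, 2449 without that pair and 219 to 2033 with a tumor left out. It was 1051 of 24000 entries with no filter, where 47 members were tested. At a minimum mean of 1 FPKM it was 908 of 12367 entries, with 23 members tested. The number past the adjusted threshold was 1, 0 with no filter, 5 without the pair and 1 to 7 with a tumor left out. The causes were not tested.

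Of 223 log2 fold changes of the 16 named members, 199 kept their direction and their side of the threshold and 24 changed sign, 23 of these with a tumor left out. The other was TIMP2 with weights (-0.10). With a tumor left out, the range was -0.172 to 0.0443 for TIMP1, -0.0347 to 0.114 for TIMP2, -0.398 to 0.184 for TIMP4, -0.0522 to 0.211 for MMP14, -0.363 to 0.173 for MMP10, -0.685 to 0.0880 for MMP1, -1.27 to 0.453 for MMP7, -1.004 to 0.0259 for MMP9, -0.706 to 0.306 for MMP28, -0.0297 to 0.358 for ADAMTS15 and -0.0169 to 0.143 for ADAMTS14. The sign was kept in every setting run for ADAMTS1 (0.0668 to 0.320 with a tumor left out), ADAMTS20 (0.333 to 0.489), MMP3 (-0.794 to -0.0633), MMP13 (-1.107 to -0.367) and MMP16 (0.220 to 0.541), though in those fits all but ADAMTS20 moved by over 1.5 times.

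With the replicate block 1049 entries had an unadjusted p under 0.05 and 1 passed the adjusted threshold, with 1 and 0 members. The main fit had no block, because the labels name no pairs and the methods of the study name an unpaired test. Deviations of same-numbered tumors correlated at -0.24, 0.16 and -0.09. With 3 tumors per group and the near-identical libraries under different numbers, these values cannot decide whether the numbers mark pairs. FPKM values without read counts do not show how much of the spread of low members is counting error, which would be greatest in WCE replicate 1.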
